A study of Homo sapiens with 9 samples.

Results

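The clustered protocadherin genes on the long arm of human chromosome 5 were examined in nascent RNA of PANC-1, a cell line from a human pancreatic ductal carcinoma. Members were the genes of the alpha, beta and gamma clusters by symbol, without 4 pseudogenes. The rule found 53 members of 57733 annotated genes: 15 alpha, 16 beta and 22 gamma genes. They lie in that order on the plus strand of build hg38.

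Nascent RNA had been labelled with 2 mM bromouridine for 30 min and captured with no chase (Bru-seq). A second form of the assay added 100 J/m2 of ultraviolet light (BruUV-seq). Bru-seq held 2 libraries for each of 3 lines, and BruUV-seq held 1 library per line. WT was a control PANC-1 line that had received no guide RNA, and KO C22 and KO C28 were each 1 clone edited with CRISPR/Cas9 in KDM6A (also called UTX), a histone H3 lysine demethylase. The labels name no separate cultures behind the replicates, so p-values measure the spread between these libraries, which may be technical. A difference between 1 clone and the control cannot be told apart from a difference between clones of the line.

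Each library held 14.4 to 31.1 M reads in genes, except Bru-seq KO C28 replicate 2 with 5.64 M. In that library an estimated 46.5% of the reads lay outside the counted parts of genes, against at most 20.0% elsewhere. The total behind this share was inferred from the deposited counts, counted lengths and length-normalized values. KDM6A read density was 317 and 276 counts-per-million (CPM) in the Bru-seq WT libraries, 259 and 430 CPM in KO C22, and 325 and 81.7 CPM in KO C28. KDM6A differed from WT by a log2 fold change of -0.05 (SE 0.52, edgeR adjusted p = 0.998) in KO C22, and by -0.36 (SE 0.52, adjusted p = 0.789) in the other clone. A small edit need not alter the number of reads over a gene body, so these values do not check the knockout. CPM here counts reads in genes, with library sizes scaled by the trimmed mean of M values (TMM). Of 8 markers of the PANC-1 line all had reads in every library. Of 10 neuronal markers, 5 to 8 had reads, and NEFL was at 0 in all libraries. Their summed level was 162 and 332 CPM in Bru-seq WT, 672 and 1082 CPM for KO C22, and 516 and 286 CPM for KO C28. BruUV-seq gave 98.3, 277 and 161 CPM for the same lines. SYT1, at a mean of 376 CPM, made most of it, and its part in the members' values was not tested. Bru-seq KO C28 replicate 2 stood apart in other lists, with 21.6 CPM summed over 5 immune markers and 21.96 CPM over 3 endothelial markers, against at most 4.10 and 3.08 CPM in the other libraries. The 8 PANC-1 markers summed to 4307 CPM there, against 678 to 2263 CPM elsewhere. The part of these differences in the members' values of that library was not tested.

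Clustered protocadherins are transmembrane adhesion proteins with extracellular cadherin repeats that bind the same isoform on a neighbouring cell. In the alpha and gamma clusters each variable exon has its own promoter and is spliced to shared last exons, while the beta genes are single exons. In neurons the variable genes are switched on in chance combinations, through looping between promoters and distant enhancers that involves the insulator protein CTCF and cohesin. The C-type genes (PCDHAC1, PCDHAC2, PCDHGC3, PCDHGC4 and PCDHGC5) lie at the ends of the alpha and gamma clusters and are used more evenly.

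A short promoter element with the core CGCT is known as a feature of many of these genes, though not of all. The core was looked up in RefSeq promoters (GRCh38.p14, 250 bases before to 50 after each listed start). A match of CGCT alone need not be the longer element. Entries existed for 47 of the 53 members, 5 of them with 2 starts. CGCT on the gene strand began between 90 and 30 bases upstream of a start in 42 of 47 members, or 89.4%. The same held for 19.2% of all 35116 promoters, counted per entry, whereas a member was counted when any of its starts had the core. The window was set after the members' positions had been seen, so the contrast is a description. By cluster the counts were 12 of 13 alpha, 12 of 14 beta and 18 of 20 gamma members. PCDHA9, PCDHB5, PCDHB8, PCDHGA1 and PCDHGB2 had no CGCT in the window. With either strand counted (CGCT or AGCG) the members' count was again 42, against 32.9% of all promoters. The longer form GTCGCT, which contains CGCT, stood in this window on the gene strand in 11 of 13 alpha, 1 of 14 beta and 5 of 20 gamma members, against 0.934% of all promoters. On either strand (GTCGCT or AGCGAC) 17 of 47 members held it, against 1.69%. TATAAA on the gene strand began between 90 and 20 bases upstream in 0 of 47, against 3.2% of all promoters.

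Windows of 30 bases are shown for members whose values are described further on, with CGCT in capitals, 5′ to 3′ on the plus strand of GRCh38.p14. They come from chr5:140794784-140794813 (PCDHA2), chr5:140875247-140875276 (PCDHA12), chr5:140966422-140966451 (PCDHAC2), chr5:141094547-141094576 (PCDHB2), chr5:141182313-141182342 (PCDHB16), chr5:141370165-141370194 (PCDHGB3), chr5:141417610-141417639 (PCDHGB7), chr5:141475883-141475912 (PCDHGC3) and chr5:141484955-141484984 (PCDHGC4).
PCDHA2: agccacatgatgtCGCTgtccaccatagag
PCDHA12: agtcacatgatgtCGCTctacactcagaag
PCDHAC2: tgagccctcctacCGCTccctttccccctc
PCDHB2: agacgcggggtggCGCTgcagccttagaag
PCDHB16: gaacgcgtggtggCGCTgcaggttaagatg
PCDHGB3: aggcgccgggtgcCGCTcttggctagtgct
PCDHGB7: agtgcagagcaagCGCTgacgccggggatc
PCDHGC3: ggactctgtgtgcCGCTgtcggccaatgaa
PCDHGC4: tgagcccgggagcCGCTgtctgccaatcgg
The commonest run of 5 bases before the core was then taken from each cluster's windows and searched with the core. GATGTCGCT stood in 9 of 13 alpha members and in 0 of 14 beta and 0 of 20 gamma members, against 0.0313% of all promoters. GGTGGCGCT stood in 11 of 14 beta members and in no other member, against 0.102% of all promoters. GGCGCCGCT stood in 5 of 20 gamma members and in no other, against 0.137%. Each count of members was the same on either strand. The runs were read from the members' own windows, so these counts are a description.

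The 250 bases upstream of the RefSeq start are shown for the member with the highest level, PCDHGC3 (chr5:141475716-141475965), and for a member with no read in any library, PCDHA2 (chr5:140794602-140794851), both on the plus strand with CGCT in capitals.
PCDHGC3: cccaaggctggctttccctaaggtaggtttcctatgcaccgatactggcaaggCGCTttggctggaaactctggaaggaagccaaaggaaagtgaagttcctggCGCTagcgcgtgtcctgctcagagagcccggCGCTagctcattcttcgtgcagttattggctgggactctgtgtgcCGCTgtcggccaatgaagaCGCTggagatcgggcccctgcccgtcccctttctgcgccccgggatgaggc
PCDHA2: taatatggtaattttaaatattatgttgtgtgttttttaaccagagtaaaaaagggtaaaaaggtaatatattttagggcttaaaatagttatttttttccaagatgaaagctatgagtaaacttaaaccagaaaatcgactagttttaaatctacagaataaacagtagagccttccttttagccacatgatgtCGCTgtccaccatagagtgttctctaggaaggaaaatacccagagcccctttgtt
The PCDHGC3 stretch holds 5 CGCT and 60% G and C, and the PCDHA2 stretch holds 1 CGCT and 32% G and C.

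**Figure D1:**
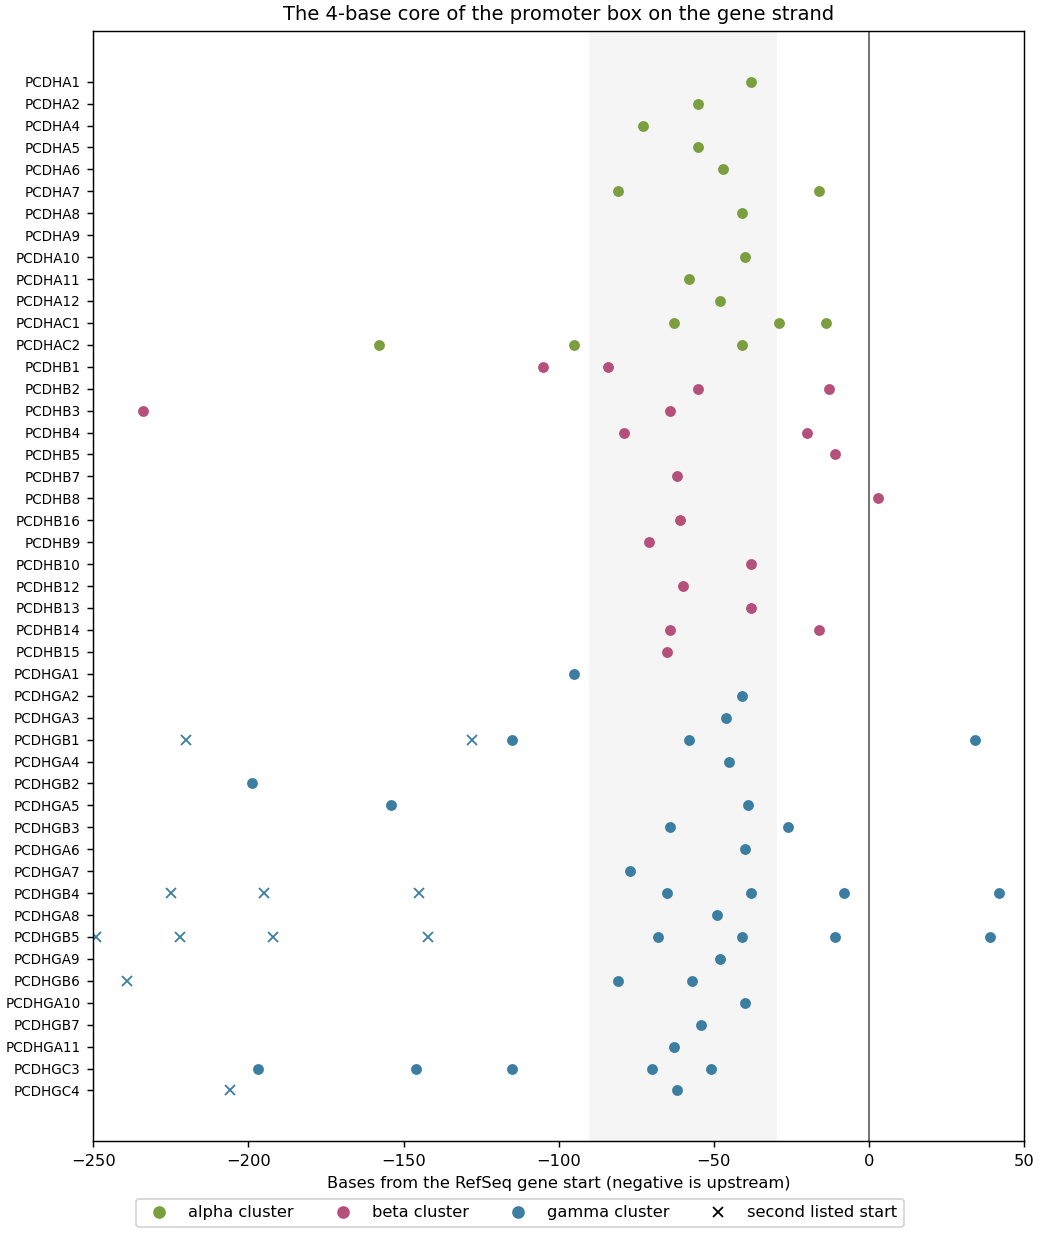
Each point is a CGCT on the gene strand, placed by its distance in bases from the RefSeq gene start (x axis) for each of the 47 members with an entry (y axis, in order along the chromosome), coloured by cluster, with crosses for a second listed start. The grey band is the window from 90 to 30 bases upstream, which holds a point for 42 of 47 members.

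How the genes were counted bears on all levels. PCDHA1 was listed over 226.2 kb and PCDHGA1 over 182.4 kb, the whole of their clusters, but the deposited counted lengths were 8719 and 8191 bases, about the distance to the next member's start. Apart from these, no member overlapped another, and 45 of 53 members had a counted length equal to the listed one. By these lengths the nested gene bodies and the shared last exons were not counted with PCDHA1 or PCDHGA1. No source used here states the rule behind the counted length. Of the 53 members, 26 have an annotated minus-strand row over them. No source used here states whether counting used the strand. The minus-strand row AC005609.5 spans PCDHA4 but had 13 reads in Bru-seq WT replicate 2, against 19 for PCDHA4. AC005609.3 lies inside PCDHA12 and had 6 reads in BruUV-seq KO C22, against 3 for PCDHA12. In these cases reads were not simply counted for both rows, and how reads were assigned elsewhere was not tested. Members are close paralogs, and reads that match several of them could have been split between them.

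The clusters were transcribed at a low level in PANC-1. Over 9 libraries the 53 members had 6253 reads, of which 439 were alpha, 1932 beta and 3882 gamma. Levels between genes were compared as CPM per kb of counted length, averaged over the libraries. The median of the members was 0.119 CPM per kb, and 49 of the 53 lay below the median of the genes tested, 0.572 CPM per kb. The genes tested had passed a filter on low counts, which only 30 of the 53 members passed. Among those 30 the median was 0.207 CPM per kb. By cluster the medians were 0.018 CPM per kb for alpha, 0.181 for beta and 0.162 for gamma. Reads were found in every library for 0 alpha, 3 beta and 7 gamma members. PCDHA2 and PCDHA3 had 0 of 172.6 M reads in genes, which allows up to 0.0174 CPM (3 reads, counting error only).

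**Figure D2:**
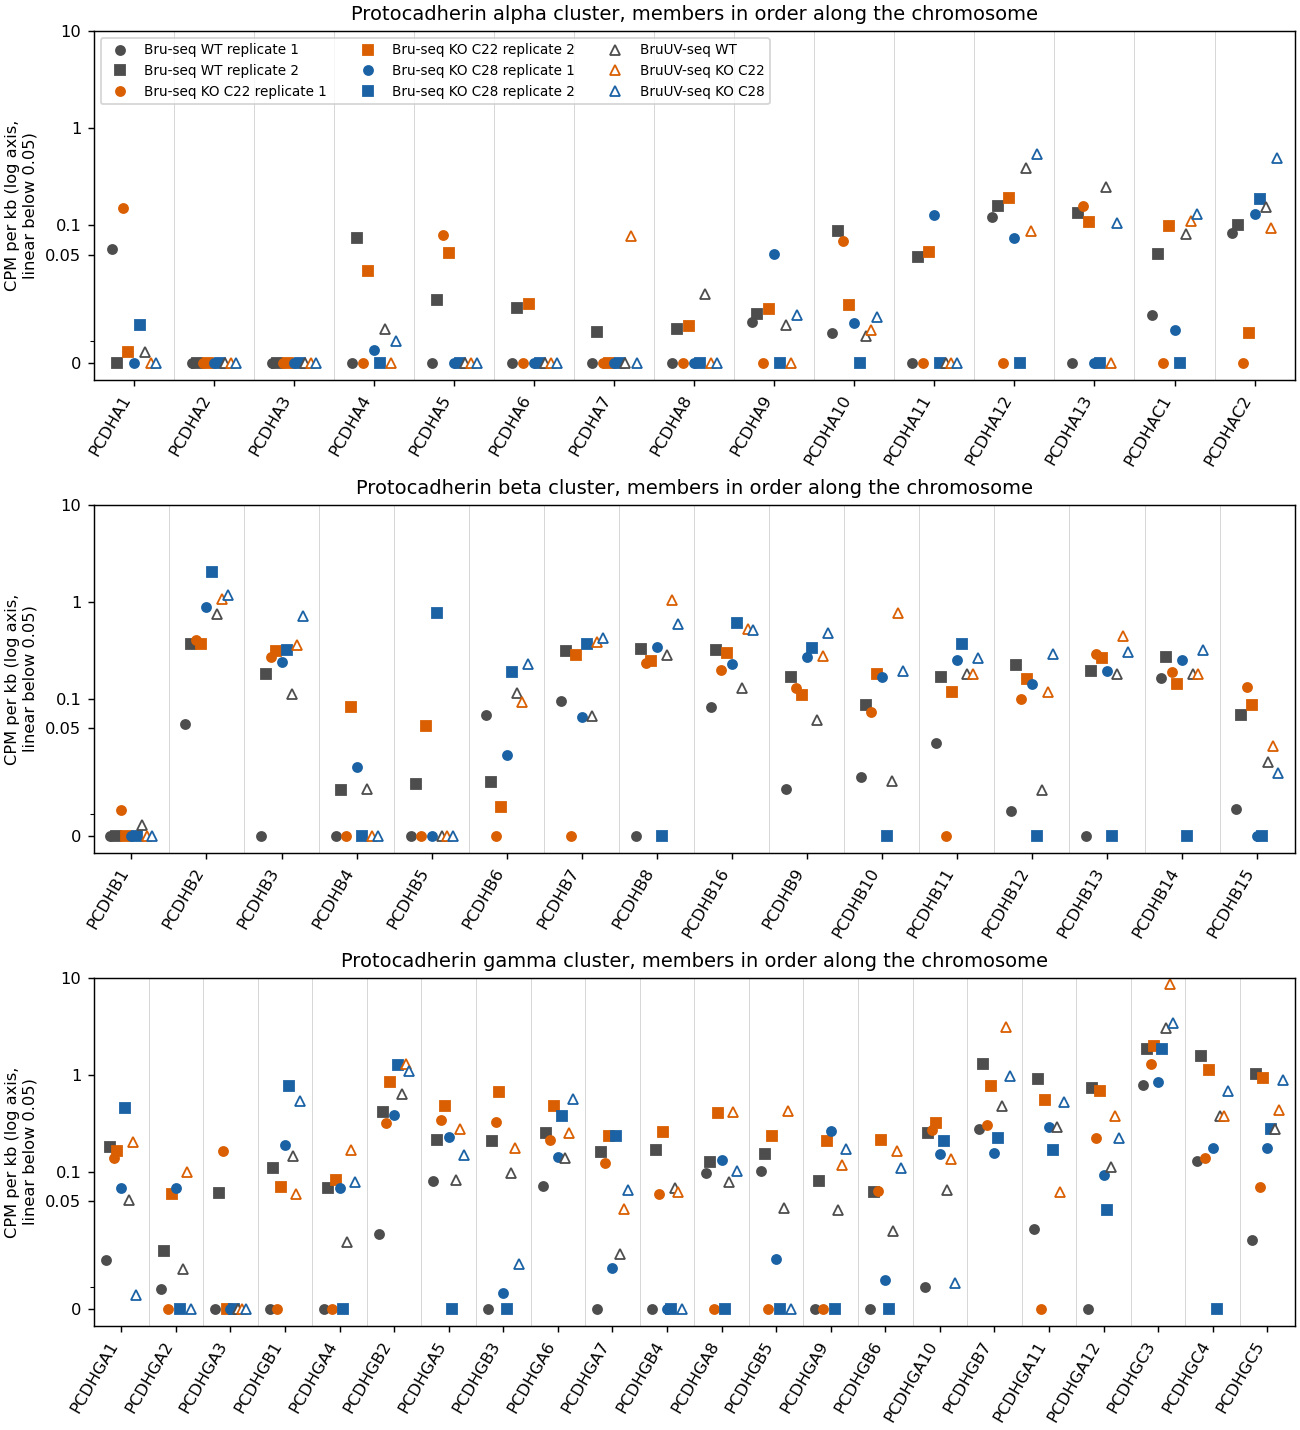
CPM per kb of counted length (y axis, logarithmic above 0.05 and linear below) for all 53 members in order along the chromosome (x axis), 1 panel per cluster, with 1 point per library (filled for Bru-seq, open for BruUV-seq). PCDHA2 and PCDHA3 lie at 0 in all 9 libraries, and PCDHGC3 is the highest member with a mean of 2.63 CPM per kb.

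In Bru-seq the level summed over all members differed more between the WT replicates than between the means of the lines. All members together had 203 reads in Bru-seq WT replicate 1 and 1103 in replicate 2, or 9.03 (95% exact binomial interval 7.84 to 10.4) and 42.9 (40.4 to 45.5) CPM before TMM scaling. The summed CPM was 9.14 and 45.2 in Bru-seq WT, KO C22 had 24.4 and 47.5, and KO C28 had 25.4 and 40.5. BruUV-seq gave 29.9 CPM in WT, 72.4 in KO C22 and 55.1 in KO C28. In Bru-seq the scaled values of the clone libraries lay between the WT replicates, apart from KO C22 replicate 2, which was above both. Before TMM scaling KO C22 replicate 2 lay between them at 34.2 CPM, and KO C28 replicate 2 lay above both at 46.8 CPM. Under BruUV-seq both clones lay above WT. The Bru-seq means were 27.2 ± 25.5 CPM (SD, n = 2) in WT, 35.9 ± 16.4 in KO C22 and 33.0 ± 10.7 in KO C28, so the SD of WT exceeded each difference between lines. In bulk RNA, fewer transcribing cells and less RNA per cell cannot be told apart.

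**Figure D3:**
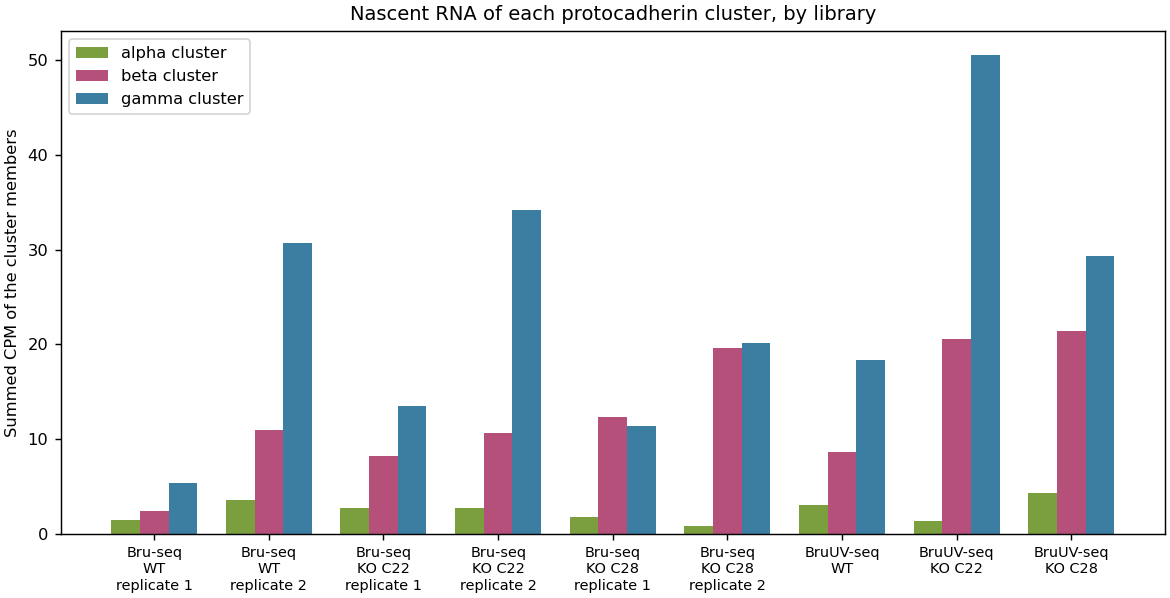
Summed CPM (y axis, from 0) of the alpha, beta and gamma members in each of the 9 libraries (x axis). Replicate 2 of Bru-seq WT is 4.94-fold above replicate 1 over all members, and gamma is the tallest bar in every library except Bru-seq KO C28 replicate 1.

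Among the 30 members that passed the filter on low counts, 29 were higher in WT replicate 2 than in replicate 1, against 51.4% of all tested genes. In KO C22 the count was 25 of 30, against 53.0%, and in KO C28 it was 16 of 30, against 55.2%. Medians without each WT replicate are given beside each comparison.

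In the alpha cluster only PCDHA10, PCDHA12 and PCDHAC2 passed the filter, through libraries in which they had reads. The highest alpha level per length was that of PCDHA12 (0.174 CPM per kb), 28.5% of the cluster's summed level. PCDHA12 was at 0.315 and 0.410 CPM in Bru-seq WT, 0 and 0.492 CPM in KO C22, and 0.193 and 0 CPM in KO C28, with BruUV-seq at 1.00, 0.227 and 1.42 CPM. These values stand on at most 27 reads in a library, and the lines overlapped. PCDHA13, a variable alpha gene that did not pass the filter, had 0 and 8 reads in Bru-seq WT, 8 and 6 in KO C22, and 0 in both KO C28 libraries.

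The C-type alpha genes were sparse as well. PCDHAC1 had 2 and 5 reads in Bru-seq WT, 0 and 9 in KO C22, 1 and 0 in KO C28, and 8, 6 and 10 under BruUV-seq. PCDHAC2 (chr5:140966235-140969480) was at 0.270 and 0.328 CPM in Bru-seq WT, 0 and 0.0447 CPM in KO C22, and 0.431 and 0.614 CPM in KO C28. Its BruUV-seq levels were 0.500, 0.303 and 1.60 CPM in WT, KO C22 and KO C28. Every KO C22 library lay below WT and every KO C28 library above it, on 5, 26 and 41 reads in KO C22, WT and KO C28.

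The beta cluster was led by PCDHB2 (chr5:141094578-141098703), with 0.788 CPM per kb and 24.2% of the summed beta level. PCDHB2 was at 0.225 and 1.52 CPM in Bru-seq WT, 1.66 and 1.51 CPM in KO C22, and 3.69 and 8.29 CPM in KO C28. BruUV-seq gave 3.12, 4.38 and 4.85 CPM. Both KO C28 Bru-seq libraries were above the other Bru-seq libraries, while KO C22 overlapped WT. PCDHB8, next in level by RPKM (reads per length and depth), was at 0 and 0.819 CPM in Bru-seq WT, 0.586 and 0.626 CPM in KO C22, and 0.862 and 0 CPM in KO C28, with BruUV-seq at 0.708, 2.65 and 1.49 CPM. PCDHB16 was at 0.380 and 1.47 CPM in WT, 0.920 and 1.37 CPM in KO C22, and 1.05 and 2.76 CPM in KO C28, with BruUV-seq at 0.596, 2.40 and 2.36 CPM. PCDHB3 was at 0 and 0.612 CPM in WT, 0.905 and 1.05 CPM in KO C22, and 0.800 and 1.07 CPM in KO C28, with BruUV-seq at 0.375, 1.21 and 2.40 CPM. PCDHB3 lay above WT in every library of both clones within each assay, and PCDHB8 and PCDHB16 did not. PCDHB5 had 17 of its 23 reads in the shallow Bru-seq KO C28 replicate 2.

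The gamma cluster held the highest member, the C-type gene PCDHGC3 (chr5:141475947-141478795). Its mean over both assays, 2.63 CPM per kb, is at the 85.1st percentile of tested genes, and it made 34.7% of the summed gamma level. The Bru-seq libraries ran from 0.775 to 1.97 CPM per kb, and BruUV-seq from 3.05 to 8.62. PCDHGC3 was at 2.21 and 5.22 CPM in Bru-seq WT, 3.71 and 5.62 CPM in KO C22, and 2.40 and 5.23 CPM in KO C28. BruUV-seq gave 8.68, 24.5 and 9.81 CPM. The lines overlapped in Bru-seq, and all 3 BruUV-seq libraries were above all 6 Bru-seq libraries. Its share of the gamma level ran from 18.5% in Bru-seq KO C22 replicate 2 to 51.0% in BruUV-seq KO C22.

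The remaining members of the 3′ end of the gamma cluster set the replicates of WT and KO C22 apart. PCDHGC4 had 8 and 106 reads in Bru-seq WT, KO C22 had 8 and 70, and KO C28 had 8 and 0. PCDHGC5 had 2 and 71 reads in WT, KO C22 had 4 and 58, and KO C28 had 8 and 5. PCDHGA11, the variable gene upstream, had 3 and 81 reads in WT, KO C22 had 0 and 45, and KO C28 had 17 and 4. In WT and KO C22 replicate 2 was the higher library for all of these, and the pseudogene PCDHGB8P in the same stretch went from 3 to 56 reads in both lines. PCDHGC4 and PCDHGC5 together made 9.63% and 26.2% of the gamma level in the WT replicates, and 5.16% and 19.1% in those of KO C22. The replicate 2 libraries had 25.7 M and 31.1 M reads in genes, against 22.4 M and 18.3 M in replicate 1.

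PCDHGB7 and PCDHGB2 were the highest variable gamma genes. PCDHGB7 was at 0.766 and 3.58 CPM in Bru-seq WT, 0.845 and 2.14 CPM in KO C22, and 0.431 and 0.614 CPM in KO C28, with BruUV-seq at 1.33, 8.71 and 2.72 CPM. PCDHGB2 was at 0.0901 and 1.06 CPM in WT, 0.830 and 2.15 CPM in KO C22, and 0.985 and 3.22 CPM in KO C28, with BruUV-seq at 1.62, 3.33 and 2.84 CPM. Both KO C28 Bru-seq libraries were below both WT libraries for PCDHGB7, but the BruUV-seq library was above, and the lines overlapped for PCDHGB2.

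**Figure D4:**
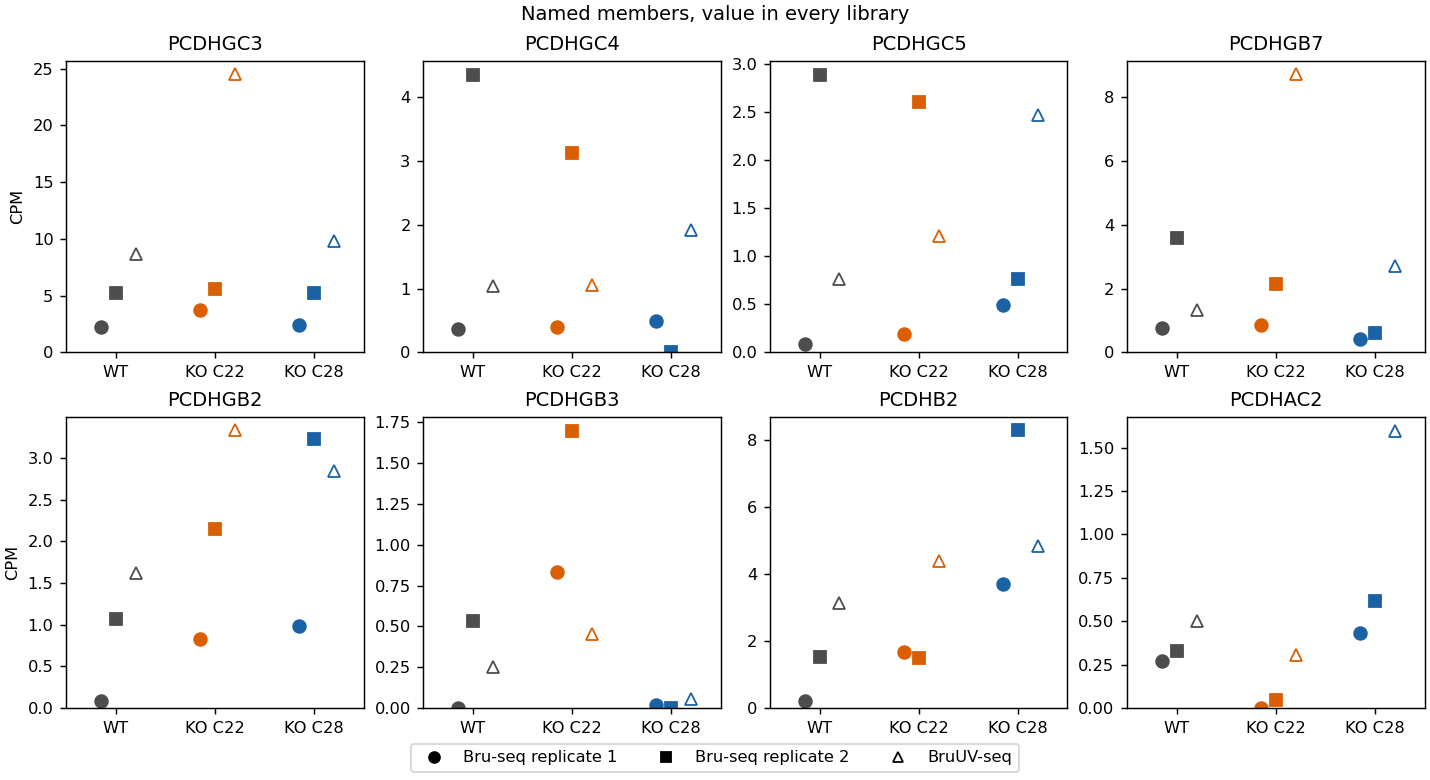
CPM (y axis, from 0) of 8 members in each line (x axis), with circles and squares for Bru-seq replicates 1 and 2 and open triangles for BruUV-seq. PCDHGC3 is highest in the 3 BruUV-seq libraries, PCDHGC4 and PCDHGC5 are high in replicate 2 of WT and KO C22, and PCDHB2 is highest in Bru-seq KO C28 replicate 2.

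The comparison of KO C22 with WT addressed whether loss of KDM6A was accompanied by a change in nascent RNA. No member passed in KO C22: 0 of 30 had an edgeR quasi-likelihood adjusted p under 0.05, where 0.158% of the 23443 genes tested passed. An unadjusted edgeR p under 0.05 was found for 0 of 30 members and for 1254 of the 23443 genes. DESeq2 and limma-voom also called 0 members. The median log2 fold change of the 30 was 0.72, with 21 above 0, against 0.03 for all tested genes. Without WT replicate 1 the median was 0.33, and without replicate 2 it was 1.85. By cluster, 0 of 3 alpha, 9 of 12 beta and 12 of 15 gamma members were above 0.

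The largest values in KO C22 had wide errors. PCDHAC2 was at -2.26 (SE 1.45) and PCDHA12 at -0.85 (SE 1.62). PCDHB10, at 0.0901 and 0.287 CPM in Bru-seq WT and 0.244 and 0.600 CPM in KO C22, was at 2.23 (SE 1.58), and PCDHB3 was at 1.68 (SE 1.28). PCDHGB6, at 0 and 0.287 CPM in WT and 0.293 and 0.983 CPM in KO C22, was at 2.12 (SE 1.66), and PCDHGB3 was at 1.89 (SE 1.60). All 6 have an edgeR adjusted p of 0.995 or more. Within each assay, 6 members were higher in every KO C22 library than in WT (PCDHB3, PCDHB13, PCDHGA5, PCDHGB3, PCDHGB6 and PCDHGA10), or 20.0% of 30, where 8.11% of all tested genes were. PCDHAC2 and PCDHB6 were lower in every library, or 6.67%, where 12.4% of all genes were. Among the higher members PCDHB3, PCDHB13, PCDHGB3 and PCDHGB6 had 0 reads in Bru-seq WT replicate 1. PCDHAC2 and PCDHB6 had 0 in Bru-seq KO C22 replicate 1. In these libraries 7 and 8 of the 30 members were at 0, against 4.68% and 4.20% of tested genes.

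No member passed in KO C28 against WT either: 0 of 30, where 0.0981% of all tested genes passed, with the same count of 0 by DESeq2 and limma-voom. Of the members 1 (PCDHB2) had an unadjusted edgeR p under 0.05, as did 2518 of the 23443 tested genes. The median was 0.39, with 18 of 30 above 0, against 0.08 for all tested genes. Of the beta members 11 of 12 were above 0 with a median of 1.10, while 1 of 3 alpha and 6 of 15 gamma members were, the gamma median being -0.17. The sign of the gamma median depended on the setting: it was 0.53 with limma-voom (10 of 15 above 0), 1.28 without Bru-seq WT replicate 2 (12 of 15), and 0.17 and 0.08 without Bru-seq KO C28 replicate 1 or 2. Without WT replicate 1 the median of the members was -0.16, and without replicate 2 it was 1.56. In Bru-seq alone it was -0.09, over 26 members tested.

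PCDHB2 had the smallest p of the members in KO C28, with a log2 fold change of 2.13 (SE 0.93, 95% interval 0.09 to 4.17) and an edgeR adjusted p of 0.460. PCDHB9, a beta gene at 0.0901 and 0.693 CPM in Bru-seq WT and 1.11 and 1.38 CPM in KO C28, was at 1.99 (SE 1.17). PCDHGB1, at 0 and 0.287 CPM in WT and 0.492 and 2.00 CPM in KO C28, was at 2.62 (SE 1.64). PCDHGB3 had 0 and 13 reads in Bru-seq WT, 17 and 38 in KO C22, and 0 in both KO C28 libraries after rounding, with 6, 6 and 1 under BruUV-seq. Over 3 libraries the KO C28 to WT ratio of PCDHGB3 read rates was 0.0966 (1 against 19 reads, 95% exact interval 0.00233 to 0.608, counting error only). Its fitted log2 fold change was -3.19 (SE 1.94), and WT replicate 1 also had 0 reads. In the alpha cluster PCDHA10, at 0.135 and 0.887 CPM in Bru-seq WT and 0.185 and 0 CPM in KO C28, was at -1.08 (SE 1.68), and PCDHAC2 was at 1.00 (SE 1.36). PCDHGC3 was at 0.07 (SE 0.62, 95% interval -1.29 to 1.42) here, against 0.75 (SE 0.62, -0.62 to 2.11) in the other clone. Within each assay 6 members were higher in every KO C28 library (PCDHAC2, PCDHB2, PCDHB3, PCDHB9, PCDHB11 and PCDHGB1), or 20.0%, where 12.6% of all tested genes were. None was lower in every library, where 13.3% of all genes were. Of the higher members PCDHB3 and PCDHGB1 had 0 reads in Bru-seq WT replicate 1.

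**Figure D5:**
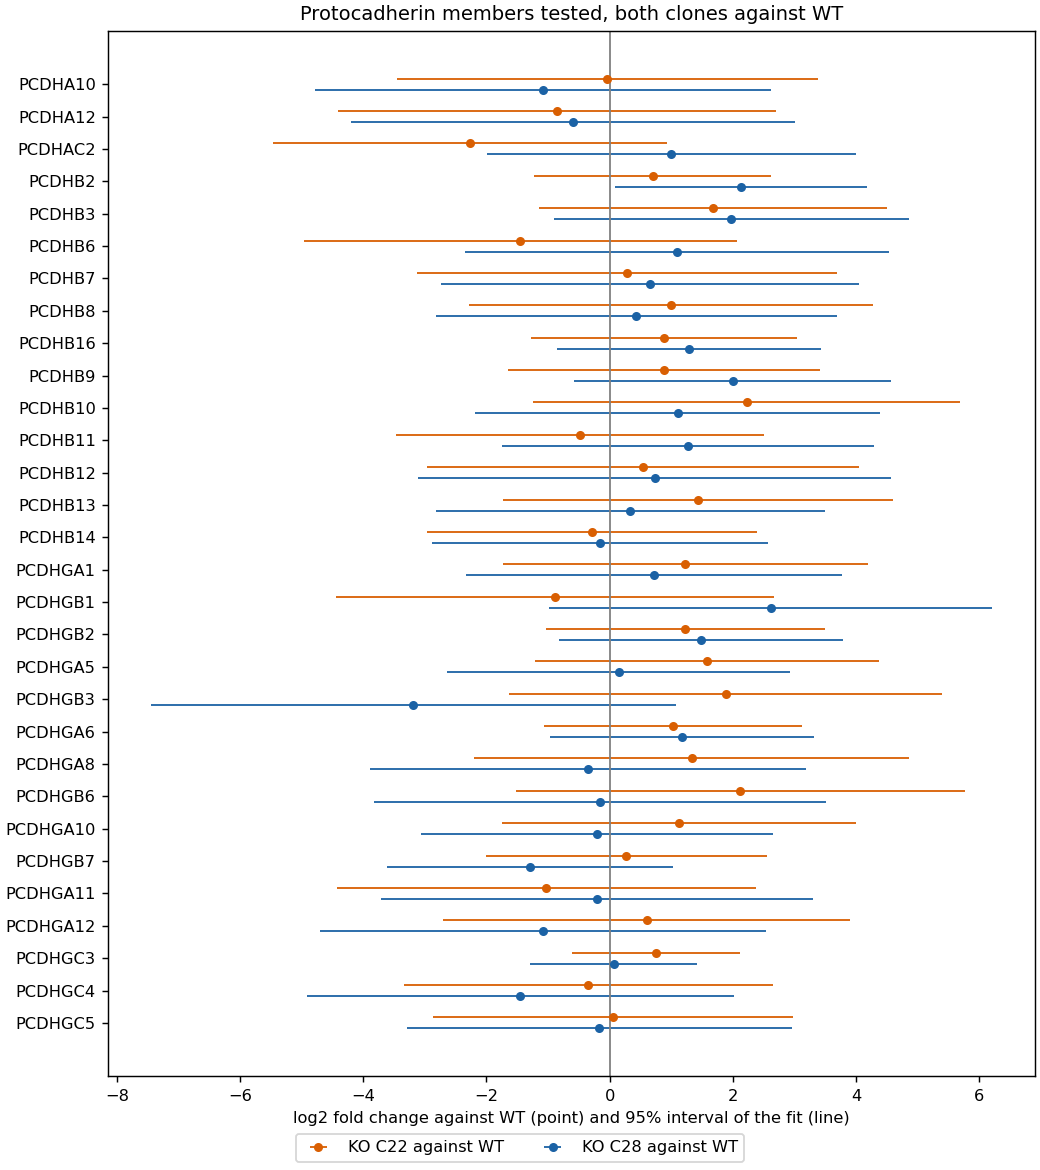
Log2 fold change against WT (x axis) with its 95% interval from the edgeR model for the 30 members that passed the filter (y axis, in order along the chromosome), KO C22 in orange and KO C28 in blue. The interval of PCDHB2 in KO C28 is the only one that does not cross 0, and 11 of 12 beta members are above 0 in KO C28.

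Both clones were compared with the same WT libraries. In KO C28 against KO C22, 0 of 30 members passed with edgeR, where 0.0% of all tested genes passed. PCDHAC2 and PCDHGB3 had an unadjusted p under 0.05, and DESeq2 and limma-voom called 0 members. Over all genes DESeq2 called 236, limma-voom 0, and 1420 genes had an unadjusted edgeR p under 0.05. PCDHAC2 was 3.27 (SE 1.48) higher in KO C28 on the log2 scale, with an edgeR adjusted p of 0.782. PCDHGB1 was at 3.50 (SE 1.72), PCDHB6 at 2.55 (SE 1.67) and PCDHB11 at 1.75 (SE 1.42). PCDHA10 was at -1.04 (SE 1.68). The KO C28 to KO C22 ratio of PCDHGB3 read rates was 0.0273 (1 against 61 reads, 95% exact interval 0.000679 to 0.158, counting error only), and its fitted log2 value was -5.08 (SE 2.04). The members' median was -0.05, against 0.17 over all genes tested, and it was -0.12 without either WT replicate. Within each assay 6 members were higher and 7 lower in every KO C28 library than in KO C22 (20.0% and 23.3%), where 8.4% and 8.25% of all tested genes were. The higher ones were PCDHAC2, PCDHB2, PCDHB6, PCDHB9, PCDHB11 and PCDHGB1, and 6 of the 7 lower ones were gamma genes (PCDHGA5, PCDHGB3, PCDHGB6, PCDHGA10, PCDHGB7 and PCDHGA12), the other being PCDHB13. Of the lower ones PCDHB13, PCDHGA5, PCDHGB3 and PCDHGB6 had 0 reads in the shallow Bru-seq KO C28 replicate 2. In that library 12 of the 30 members were at 0, against 11.4% of tested genes, so depth limits this count.

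BruUV-seq was compared with Bru-seq across the 3 lines. Ultraviolet lesions stop the polymerase within gene bodies, so the assay raises reads near gene starts and enhancers relative to distal parts of long genes. The members' counted lengths have a median of 3408 bases. With edgeR 0 of 30 members passed, where 0.00427% of all tested genes passed. Of the members 1, PCDHGC3, had an unadjusted edgeR p under 0.05, as did 5476 of the 23443 tested genes. The median log2 difference was 0.49, with 23 of 30 above 0, among them all 12 beta members, against -0.18 for all tested genes. Without WT replicate 1 the median was 0.51, and without replicate 2 it was 1.52, with 26 of 29 above 0. With limma-voom it was 0.93. With an offset for the trend of each library with gene length, the median of the members was -0.15, 14 of 30 were above 0, and 7 of 12 beta members were. The direction of the members as a group in this comparison thus depends on that scaling.

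PCDHGC3 was 1.69 (SE 0.52, 95% interval 0.56 to 2.83) higher on the log2 scale in BruUV-seq, with an edgeR adjusted p of 0.153. DESeq2 called it at 1.68 with an adjusted p of 0.00997. Without Bru-seq KO C28 replicate 2, edgeR called it at 1.89 with an adjusted p of 0.0193. With the length offset it was at 1.04 (SE 0.51, edgeR adjusted p = 0.314), and without BruUV-seq KO C22 at 1.48 (SE 0.70, adjusted p = 0.459). Next in their clusters were PCDHGB7 at 1.68 (SE 0.89), PCDHAC2 at 1.85 (SE 1.16), PCDHA12 at 1.84 (SE 1.45), PCDHB6 at 1.85 (SE 1.32) and PCDHB8 at 1.56 (SE 1.23), none with an edgeR adjusted p under 0.05. PCDHAC2, PCDHB6 and PCDHGC3 were higher in BruUV-seq than in both Bru-seq libraries of every line (10.0% of 30), where 14.3% of all tested genes were, and none was lower in this way, where 10.8% of all genes were.

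Genes that act on or with the clusters were followed by lists. Of 16 insulator and cohesin factors, 0 passed in each of the 4 comparisons, with medians of 0.26 in KO C22 and -0.10 in KO C28. CTCF, at 103 and 53.2 CPM in Bru-seq WT, had a log2 fold change of 0.41 (SE 0.34) for KO C22, then 0.23 (SE 0.34) for KO C28. The cohesin subunit RAD21 had 0.51 (SE 0.38) and 0.12 (SE 0.38). Of 24 chromatin regulators of the clusters, 0 passed, with medians of 0.09 and -0.17. SMCHD1, a repressor of these clusters, was at 0.13 (SE 0.39) and -0.34 (SE 0.39). The intervals of these 3 genes in both clones covered 0. Of the other genes of both lists, the 95% interval lay off 0 in KO C22 for DNMT1 at 1.39 (0.37 to 2.41) and SMC1A at 1.27 (0.046 to 2.497). In KO C28 it did so for LRIF1 at -1.13 (-2.00 to -0.27) and TRIM28 at 1.10 (0.10 to 2.11). Among all 23443 tested genes, 1254 in KO C22 and 2518 in KO C28 had an unadjusted edgeR p under 0.05. In BruUV-seq DNMT1 was at 181 CPM in WT and 793 CPM in KO C22, and SMC1A was at 281 and 1210 CPM. In Bru-seq DNMT1 was at 102 and 38.1 CPM in WT, and 106 and 170 CPM in KO C22. SMC1A was at 129 and 78.1 CPM in Bru-seq WT, and 73.3 and 286 CPM in KO C22.

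Of 20 signalling partners of the cytoplasmic tails, MARCKS alone passed, in KO C28. MARCKS, a membrane-bound actin regulator, was at 8.29 and 7.28 CPM in Bru-seq WT, 36.3 and 29.7 CPM in KO C22, and 75.3 and 120 CPM in KO C28. It was 3.08 (SE 0.45) higher in KO C28 with an edgeR adjusted p of 0.0358, and 1.85 (SE 0.42) higher in KO C22 with an adjusted p of 0.211. In Bru-seq alone the KO C28 value was 3.37 with an adjusted p of 0.484. It also no longer passed when any 1 of 6 libraries was left out (values 2.73 to 3.55, adjusted p 0.0678 to 0.208): either Bru-seq WT library, Bru-seq KO C28 replicate 1, or any BruUV-seq library.

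Non-clustered protocadherins were tested for 11 of 16 listed. The list held single genes outside the clusters, among them the cadherin-related genes CDHR1, CDHR2, CDHR3 and CDHR5. In KO C28, 11 of 11 were above 0 with a median of 1.70 and 0 passed, and in KO C22 7 of 11 were above 0 with a median of 0.64 and 0 passed. Other settings called some of them in KO C28: DESeq2 called 2, limma-voom, RLE size factors and the length offset 1 each, and the fit with no filter 3 of 15. Leaving out 1 library called 0 to 2, and DESeq2 called 1 in KO C22. Without Bru-seq KO C28 replicate 2 the KO C28 median was 0.85, over 10 genes of which 6 were above 0 and 1 passed. PCDH18 was at 4.55 and 7.17 CPM in Bru-seq WT, 7.18 and 13.5 CPM in KO C22, and 52.4 and 53.1 CPM in KO C28, a difference of 2.91 (SE 0.46, edgeR adjusted p = 0.0537). PCDH9 was at 5.14 and 4.47 CPM in WT, 16.7 and 20.2 CPM in KO C22, and 15.1 and 89.1 CPM in KO C28, a difference of 3.28 (SE 0.61, edgeR adjusted p = 0.0936). Both KO C28 Bru-seq libraries lay above both WT libraries for these genes. In BruUV-seq against Bru-seq 2 of 11 non-clustered genes were above 0, with a median of -1.02.

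Of 24 neighbours on chromosome 5, 23 were tested and 0 passed, with medians of -0.04 in KO C22, 0.09 in KO C28 and 0.56 in BruUV-seq against Bru-seq. TAF7, a subunit of the general transcription factor TFIID encoded between the beta and gamma clusters, had 855 to 3517 reads in each library, against 203 to 1103 for the 53 members together. Its log2 fold change was 0.54 (SE 0.56) for KO C22, then 0.79 (SE 0.56) for KO C28. Of 30 other annotated rows inside the locus, 15 are on the minus strand. The minus-strand row AC244517.11 had 79 and 456 reads in Bru-seq WT, KO C22 had 250 and 1145, and KO C28 had 114 and 75, so it too was higher in replicate 2 of WT and KO C22. Its part in the members' counts was not tested.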

How the data were processed

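Members, lists and markers were chosen with earlier results of these data known. Reads were processed with CASAVA 1.8.2, Bowtie2 2.3.3, STAR 2.5.3a and bedtools 2.16.2 on hg38, per the submitters' processing notes. The deposited tables give an estimated count and an RPKM value per gene, the latter normalized by the authors for counted length and depth. The counting rule, its use of strand and the rule behind the counted length are not given in the sources used here.

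Estimated counts were rounded. Genes passing filterByExpr (23443) were fitted with edgeR 4.0.16 in R 4.3.3 (quasi-likelihood, TMM scaling, line and assay as terms, all 9 libraries), with Benjamini-Hochberg adjusted p under 0.05 as the threshold. The common biological coefficient of variation was 70.9%. CPM values are TMM-scaled. The RPKM values ranked members and served as an alternative level. The code was tested on simulated data.

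Alternatives were DESeq2 1.42.0, limma-voom (limma 3.58.1), RLE size factors, no filter on low counts, a replicate block, a gene-length offset, Bru-seq alone and leaving out each library. Subtracting nested gene bodies was planned and not run, because the counted lengths of PCDHA1 and PCDHGA1 do not span the other members.

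Named members were the 4 with the highest mean RPKM per cluster, the 5 C-type genes and the 2 largest changes per cluster and comparison. Others (PCDHA2, PCDHA3, PCDHB5, PCDHB13, PCDHB15, PCDHGA11 and those in counts of non-overlap or without CGCT) were chosen after their values were seen. Same-numbered replicates deviated together in WT and KO C22 but not with KO C28, so they were not paired. Promoters come from RefSeq.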

Additional observations from a re-analysis of the deposited data

Results flagged for a closer look

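PCDHAC2, the C-type gene at the end of the alpha cluster, lay above WT in every KO C28 library and below WT in every KO C22 library within each assay. Of all tested genes 12.6% lay above WT in every KO C28 library, and 12.4% lay below WT in every KO C22 library. The share of genes that did both is not given here, so how unusual the joint pattern is was not tested. Its mean Bru-seq level was 0.522 CPM in KO C28 and 0.299 CPM in WT. The difference between the clones had an unadjusted edgeR p of 0.0488 and an adjusted p of 0.782. PCDHB15, a beta gene, went the opposite way: its mean Bru-seq level was 0.401 CPM in KO C22, 0.145 CPM in WT and 0 in both KO C28 libraries. In Bru-seq it had 1 and 6 reads in WT and 10 and 7 in KO C22, and the 0 in the KO C28 libraries allows up to 0.190 and 0.532 CPM before TMM scaling (3 reads, counting error only), above the WT mean. BruUV-seq gave 3 reads in WT, 2 in KO C22 and 2 in KO C28, or 0.125, 0.152 and 0.107 CPM. It did not pass the filter on low counts, so its difference between the clones was not tested.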

How the results depend on the processing

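No member passed in KO C22 against WT, KO C28 against WT or KO C28 against KO C22 under any alternative. In BruUV-seq against Bru-seq 1 member, PCDHGC3, passed with DESeq2 (1.68), with the replicate block (2.27) and without Bru-seq KO C28 replicate 2 (1.89), so leaving out 1 library gave 0 to 1 members. With the length offset, and without BruUV-seq KO C22, no member had an unadjusted edgeR p under 0.05 there. Of all tested genes 3937 and 2610 did in these settings. The count over all genes was 37 in KO C22 and became 272 with no filter, 347 with DESeq2, 1 in Bru-seq alone and 3 to 142 on leaving out 1 library. In KO C28 it was 23 and became 1100 with no filter, 685 with DESeq2, 38 with the replicate block, 37 with the length offset, 1 in Bru-seq alone and 1 to 67 on leaving out 1 library. In KO C28 against KO C22 it was 0 and became 230 with no filter, 236 with DESeq2, 3 with the length offset and 0 to 18. In BruUV-seq against Bru-seq it was 1 and became 2326 with no filter, 4109 with DESeq2, 150 with limma-voom, 864 with the replicate block, 5 with the length offset and 0 to 3305. The cause of these shifts was not tested. The replicate block changed no other call of a member. With it the median of the members was 1.61 in BruUV-seq against Bru-seq (27 of 30 above 0), the gamma median in KO C28 was 0.14 (11 of 15), the median in KO C28 against KO C22 was 0.05, and 1 non-clustered protocadherin passed in KO C28. Replicate numbers were not used as pairs, and the correlations of same-numbered deviations were 0.43 for WT and KO C22, 0.00 for WT and KO C28 and -0.48 for KO C22 and KO C28.

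PCDHGC3 in KO C28, 0.07 in the full model, was -0.27 in Bru-seq alone and -0.36 to 0.44 on leaving out 1 library. The median of the members ranged from 0.26 to 1.85 in KO C22, from -0.16 to 1.56 in KO C28, from -0.56 to 0.26 in KO C28 against KO C22 and from 0.23 to 1.52 in BruUV-seq against Bru-seq on leaving out 1 library. The subtraction of nested gene bodies was not run. Depth limits the members: 23 of 53 did not pass the filter, and a member at 0 in the shallowest library could hold up to 0.532 CPM (3 reads).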
